A study of Mus musculus with 8 samples.

Results

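Solute carriers (SLCs) are the membrane proteins that move amino acids, sugars, ions, vitamins, nucleosides and metabolites across the plasma membrane and the membranes of organelles. They are numbered by family, so that the Slc2 family holds facilitative glucose transporters, the Slc16 family monocarboxylate transporters and the Slc25 family the carriers of the inner mitochondrial membrane. Many carriers are made in only a few tissues, such as the kidney, gut or brain, and others are made in nearly all cells. Methylation of CpG cytosines in a promoter usually accompanies a silent gene, and promoters rich in CpGs (CpG islands) are usually unmethylated. The promoters described here were those of autosomal genes whose symbol begins with Slc and a number, without Slc22a3. They comprised 157 of the 9224 genes and 3106 of the 203645 promoter cytosines that were measured.

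The cells were germline stem (GS) cells, cultured spermatogonia that were established from CD9-expressing cells of mature testes and that grow in medium with GDNF and FGF2. Control-F1 GS cells (4 lines, 29, 37, 44 and 45) came from mice born after natural mating, and ICSI-F1 GS cells (4 lines, 11, 17, 20 and 21) from mice born after intracytoplasmic sperm injection, in which a sperm is injected into an oocyte. The labels give all 8 lines as wild type and on a B6 background, with ICSI as the only treatment named, with 1 library per line, and the comparison asks whether conception by ICSI left a mark on DNA methylation in the germline of the offspring. The sperm used for injection came from mice with a green fluorescent transgene, according to the methods of the study. The sources used here do not tie the lines to parents or litters, so a p-value here measures the spread between lines only.

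Methylation was measured by reduced representation bisulfite sequencing (RRBS), in which the restriction enzyme MspI cuts DNA at CCGG and the short fragments are bisulfite converted and sequenced. A site is 1 cytosine of a CpG on 1 strand, its level is the percentage of its reads that were methylated, and a promoter level is the unweighted mean of its sites. The median scaled coverage of the Slc sites was between 75 and 89 reads in a line, and 40 to 86 reads once the scaling of the authors was undone, so a single site carries a sampling error of several percentage points. Lines 29, 37, 11 and 17 are described in a different label field from lines 44, 45, 20 and 21, and these sets of 4, each with 2 lines of either group, are called library sets 1 and 2. Promoters of 9 of 15 germ cell genes listed as markers were measured, among them Dazl, Ddx4, Piwil2 and Zbtb16. All 9 had a mean level under 10%, as did 73.5% of autosomal promoters. Gfra1 was measured at 1 site. Single lines exceeded 10% at several of these promoters. The highest were Sycp1 with 13.5% (line 44), Hormad1 with 12.9% (line 20), Piwil2 with 12.8% (line 45) and Asz1 with 12.4% (line 21). Dazl reached 12.2% (line 45) and Mael 10.1% (line 37). All but the Mael value came from lines of library set 2.

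All 3106 Slc sites lay upstream of the listed gene start, at distances of 1 to 999 bp, and all lay on a CpG of the mm10 reference. A gene had a median of 11 sites, 129 genes had at least 5 and 8 genes had 1. GENCODE M21 lists 365 autosomal Slc symbols, and 154 of the members were found among them. One matched gene, Slc9a3r1, encodes a scaffold protein and not a carrier, and 155 of the members fell into 10 transport classes.

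The DNA around the sites that the results turn on is shown first, as the plus strand of mm10 from 5' to 3'. Capitals mark the CpGs with a site that was counted as changed, meaning that its group means differed by more than 20 percentage points and that every ICSI-F1 line lay on the same side of the control-F1 mean, with 50 bases on either side.
Slc45a4 (sugar transporter family, chr15:73646258-73646486): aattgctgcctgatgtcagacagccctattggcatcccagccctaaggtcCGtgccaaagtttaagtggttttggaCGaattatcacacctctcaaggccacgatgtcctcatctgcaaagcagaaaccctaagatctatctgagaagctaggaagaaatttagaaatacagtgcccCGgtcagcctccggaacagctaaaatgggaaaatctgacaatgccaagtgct
Slc9a9 (endosomal sodium/proton exchanger, chr9:94669421-94669547): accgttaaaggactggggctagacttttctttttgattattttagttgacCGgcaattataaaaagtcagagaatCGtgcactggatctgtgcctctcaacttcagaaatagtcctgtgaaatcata
Slc17a8 (vesicular glutamate transporter, chr10:89621988-89622089): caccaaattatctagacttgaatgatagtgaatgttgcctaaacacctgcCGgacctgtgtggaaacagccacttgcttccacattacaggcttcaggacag
Slc36a2 (proton-coupled amino acid transporter, chr11:55186000-55186101): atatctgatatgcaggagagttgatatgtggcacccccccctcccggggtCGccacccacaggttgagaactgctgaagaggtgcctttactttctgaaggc
Slc38a9 (lysosomal arginine sensor, chr13:112660592-112660693): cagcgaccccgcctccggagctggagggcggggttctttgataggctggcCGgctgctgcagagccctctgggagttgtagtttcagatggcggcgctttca
Slc5a1 (sodium/glucose cotransporter, chr5:33103344-33103445): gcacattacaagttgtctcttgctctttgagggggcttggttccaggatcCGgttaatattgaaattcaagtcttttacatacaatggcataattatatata
Slc41a3 (magnesium transporter family, chr6:90604214-90604315): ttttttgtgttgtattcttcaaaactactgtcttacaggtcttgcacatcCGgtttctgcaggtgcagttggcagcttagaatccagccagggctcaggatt
In 6 of these windows a capital CpG is part of a CCGG, the sequence cut by MspI, and the exception is Slc36a2, whose other measured CpG stands in lower case since it was not counted. None of the windows overlaps an annotated UTR, and the Slc45a4 window lies in an exon of the noncoding gene 1700010B13Rik. A pair of further windows sets a methylated promoter beside one with little methylation, with the measured CpGs in capitals.
Slc12a1 (kidney sodium/potassium/chloride cotransporter, methylated, chr2:125151499-125151749): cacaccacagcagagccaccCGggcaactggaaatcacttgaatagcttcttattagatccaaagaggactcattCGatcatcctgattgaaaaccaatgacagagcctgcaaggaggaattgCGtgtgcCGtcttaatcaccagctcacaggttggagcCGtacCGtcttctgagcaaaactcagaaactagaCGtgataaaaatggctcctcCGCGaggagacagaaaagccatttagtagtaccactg
Slc25a31 (testis ADP/ATP carrier of mitochondria, little methylated, chr3:40708605-40708854): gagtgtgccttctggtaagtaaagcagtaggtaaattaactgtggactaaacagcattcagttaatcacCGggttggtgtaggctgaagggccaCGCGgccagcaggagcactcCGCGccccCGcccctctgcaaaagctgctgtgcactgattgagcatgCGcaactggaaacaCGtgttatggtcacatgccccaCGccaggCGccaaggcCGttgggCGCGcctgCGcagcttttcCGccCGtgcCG

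Slc promoters were mostly unmethylated in GS cells, and the levels were alike in both groups. Averaged over the 3106 sites, control-F1 lines had a level of 8.36% ± 1.45 (SD, n = 4) and ICSI-F1 lines one of 8.20% ± 1.22 (SD, n = 4). By line it was 7.15% in line 29, 7.09% in line 37, 9.84% in line 44 and 9.37% in line 45 of the control-F1 group, and 6.91% in line 11, 7.48% in line 17, 9.58% in line 20 and 8.82% in line 21 of the ICSI-F1 group. The groups overlapped, and the difference of -0.167 points was smaller than the SD within either group. Taken within a library set, the difference was 0.0703 points in set 1 and -0.404 in set 2. All autosomal sites had means of 7.67% and 7.53%. The 4 lines of library set 2 were the 4 highest, and set 2 exceeded set 1 by 2.24 points over Slc sites and by 2.27 over all autosomal sites.

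Over the 8 lines, 110 of the 157 promoters (70.1%) had a level under 10%, 20 lay between 10% and 20%, 15 (9.55%) between 20% and 80%, and 12 (7.64%) at 80% or more. The shares over all 9004 autosomal promoters were 73.5%, 10.7%, 7.54% and 8.29%. Methylation was lowest where CpGs were dense. The median number of CpGs in the 1000 bases upstream was 32 for promoters under 10%, 22.5 for those between 10% and 20%, 18 for those between 20% and 80%, and 15 for those at 80% or more. Sites in CpG islands (71.7% of Slc sites, 76.9% of all autosomal sites) had a mean of 5.04%, sites in shores of islands 12.4%, and sites outside islands, shores and shelves 19.2%. The 306 sites lying 501 to 999 bp from the start had a mean of 25.7%, against 15.4% for autosomal sites at that distance, and the 1381 sites within 100 bp had a mean of 5.73%, against 5.60%.

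A CpG inside the MspI sequence CCGG behaved unlike other CpGs of the same promoters. The 566 Slc sites within CCGG (18.2% of sites) had a mean level of 26.7% and a median of 20.9%, whereas the 2540 other sites had a mean of 4.17% and a median of 1.97%. Of the sites with a level between 20% and 80%, 237 lay inside CCGG and 17 outside. Such CpGs end the fragments that the enzyme makes, and cut ends are commonly repaired with added nucleotides before sequencing adaptors are joined. All 157 measured Slc promoters and 99.5% of measured autosomal promoters hold the sequence on either strand within 1000 bases of the start. RRBS reads fragments cut at CCGG, so these shares do not show how common it is in promoters.

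The strands of a CpG, which normally carry methylation together, were compared by their mean levels over the 8 lines. They differed by more than 50 points at 53 of the 177 CpGs inside CCGG that were read on both strands. None of the 1055 CpGs outside CCGG did so in these means. A single line could, as line 21 did at the Slc45a4 CpG 597 bp from the start. The median strand difference was 17.7 points inside and 2.65 outside. At 50 of the 53 CpGs the more methylated strand had fewer reads. Over all autosomal promoters the counts were 2984 of 10834 (27.5%) inside CCGG and 0 of 69208 outside, so the Slc promoters were not alone in it. In Slc25a13, a mitochondrial aspartate/glutamate carrier, the CpG 44 bp from the start read between 0% and 6.25% on the plus strand and between 97.0% and 100% on the minus strand over the 8 lines. The CpG of Slc2a3, the glucose transporter of neurons, that lies 22 bp from the start read between 0% and 26.6% on the plus strand and between 95.8% and 100% on the minus strand. How much of a level inside CCGG comes from the genome and how much from the repaired ends was not tested, so levels are given below with and without these CpGs.

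**Figure D1:**
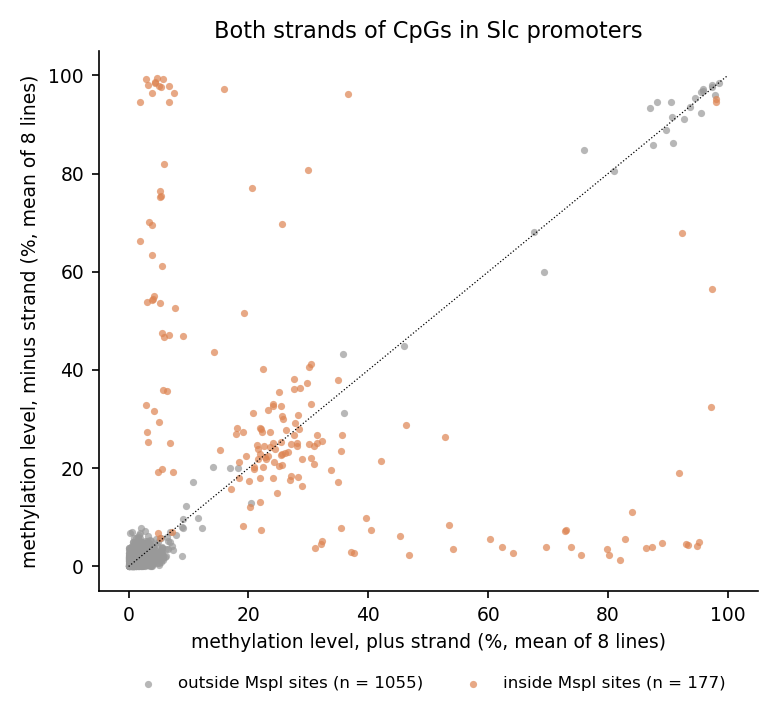
Level on the minus strand (y axis, %) against the plus strand (x axis, %) for the 1232 Slc promoter CpGs read on both strands, as means of 8 lines, with the dotted line marking equal levels. The 1055 CpGs outside MspI sites (grey) lie along the line, while 53 of the 177 CpGs inside MspI sites (orange) had strands more than 50 points apart.

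Without the CpGs of MspI sites, 147 of the 157 promoters could still be measured, and the other 10 had no other CpG. The median promoter level was then 2.36% (6.19% with all CpGs), and 129 of 147 (87.8%) lay under 10%. Of the 15 promoters between 20% and 80%, 6 went below 10%, 1 lay between 10% and 20%, 5 stayed between 20% and 80% and 3 had no other CpG. Of the 20 promoters between 10% and 20%, 18 went below 10%. By contrast, 11 of the 12 promoters at 80% or more stayed there and the other, Slc6a12, had no other CpG. The fully methylated class was therefore also seen outside CCGG. The intermediate class was seen there at 5 promoters and could not be assessed at 3.

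Among carriers at 80% or more were several known from kidney, gut or brain. Such carriers were also found at low levels. Outside CCGG, 12 of 14 measured promoters of neurotransmitter or vesicle carriers lay under 10%, with a median of 2.82%. Slc12a1, the salt cotransporter of the thick ascending limb of the kidney, had 97.8% ± 1.30 in the control-F1 group and 97.4% ± 1.09 in the ICSI-F1 group (SD, n = 4), over 14 sites. Slc5a4a, of the sodium/glucose cotransporter family, had 94.9% ± 1.27 and 96.0% ± 1.34, and Slc6a7, the proline transporter of brain synapses, 89.6% ± 4.77 and 87.8% ± 4.83. Each of the 8 lines was above 80% at these 3 promoters, and the groups overlapped. Slc16a11, of the monocarboxylate family, had 95.9% ± 1.11 and 96.7% ± 0.880, and Slc16a3, the lactate exporter of glycolytic cells, 92.8% ± 3.38 and 91.4% ± 3.94. Slc5a1 and Slc7a15 belonged here too and are described below, and Slc13a4, Slc23a1, Slc25a34, Slc66a2 and Slc6a12 were measured at 4 sites or fewer.

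Intermediate levels that held without CCGG were few. Slc26a9, an anion transporter of airway and stomach, had no site inside CCGG and 4 outside, and its control-F1 lines had levels of 93.8% (line 29), 41.5% (line 37), 89.2% (line 44) and 57.1% (line 45). Its ICSI-F1 lines had 83.0% (line 11), 37.6% (line 17), 77.3% (line 20) and 50.6% (line 21). Line 37 and line 17, and then lines 45 and 21, were the lowest of their groups, and the groups overlapped widely. Slc29a1, an equilibrative nucleoside transporter, had 29.9% ± 3.13 and 29.7% ± 4.99 over 18 sites and a mean of 20.6% over the 13 sites outside CCGG. Slc25a45, a member of the mitochondrial carrier family, had group means of 60.2% ± 8.57 (control-F1) and 53.4% ± 12.2 (ICSI-F1), and 39.5% over the 2 sites outside CCGG. Slc45a4 and Slc36a2, the others of this kind, are described below.

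Other carriers had an intermediate level only with the CCGG sites. Slc25a20, which brings acylcarnitines into mitochondria, had a level of 31.6% over 7 sites and 3.32% over the 2 sites outside CCGG. For Slc7a9, which takes up cystine in the kidney, the values were 23.6% and 2.44%, and for Slc25a39, a carrier for mitochondrial glutathione, 23.4% and 1.87%. Slc12a7, a potassium/chloride cotransporter, went from 27.1% to 12.4%. The promoter of Slc4a10, a sodium/bicarbonate transporter of neurons, was measured at the strands of 1 CpG, which is inside CCGG and read between 3.45% and 30.2% on the plus strand and between 90.0% and 100% on the minus strand. Its group means of 53.8% ± 2.94 (control-F1) and 59.4% ± 3.94 (ICSI-F1) are each therefore an average of unlike strands.

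By transport class, the median promoter level was highest for carriers of sugars (10.1%, 14 promoters) and of neurotransmitters or vesicles (10.0%, 15 promoters), followed by vitamins and nucleosides (9.05%, 9 promoters). Mitochondrial carriers had a median of 6.54% (24 promoters), amino acid transporters 6.37% (20), carriers of monocarboxylates, lipids, peptides, choline and urea 6.16% (15), and carriers of inorganic ions 5.63% (28). Carriers of metals and heme had 4.36% (10), those of organic ions and bile salts 4.12% (6), and those of nucleotide sugars and acetyl-CoA 3.86% (14). With the CCGG sites left out the class medians lay between 1.70% for organic ions and bile salts and 2.82% for neurotransmitters and vesicles. The spread of the class medians was thus smaller without these sites. The promoters at 80% or more came from 7 of the classes in the plot and, with Slc66a2, from a gene without a class.

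**Figure D2:**
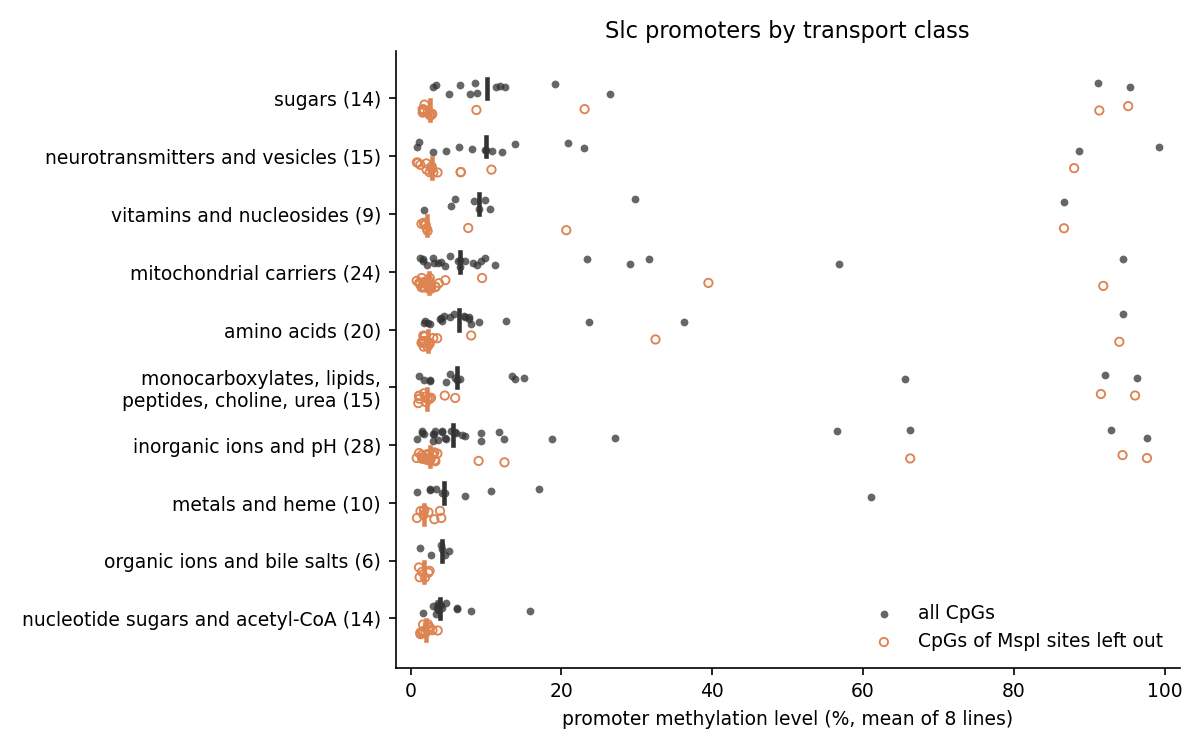
Promoter level (x axis, %, mean of 8 lines) of the Slc genes in each transport class (number of promoters in parentheses), with a short line at each median. Filled points use all CpGs and open orange points leave out the CpGs of MspI sites, which brings every class median to between 1.70% and 2.82% and leaves the promoters near 90% to 100% in place.

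The medium of GS cells holds glucose, lactate, pyruvate, glutamine, ascorbic acid and vitamins, and 16 of 25 listed carriers for such components were measured. Of these, 13 (81.25%) had a level under 10% and 2 (12.5%) were at 80% or more, against 73.5% and 8.29% of autosomal promoters. Slc2a1 and Slc2a3, both facilitative glucose transporters, had levels of 2.91% and 7.84%, and Slc16a1, which carries lactate and pyruvate, had 5.82%. Slc38a1 (2.61%) and Slc38a2 (7.20%), which take up glutamine, Slc7a5 (3.97%), the large neutral amino acid transporter, Slc7a11 (4.18%), the cystine/glutamate exchanger, and Slc44a1 (2.63%), a choline transporter, were low too. The low group also held Slc16a7, Slc19a2, Slc19a3 and Slc27a4, and Slc52a2, a riboflavin transporter, had 10.5%. Apart from Slc1a5, described below, none of the listed carriers under 10% differed between the groups by as much as 5 points.

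The methylated carriers of this list were Slc16a3 and Slc23a1, a sodium-dependent transporter of ascorbic acid known from kidney and gut. Slc23a1 had levels of 66.4% in line 29, 60.7% in line 37, 92.4% in line 44 and 92.7% in line 45 among control-F1 lines. It had 96.7% in line 11, 93.0% in line 17, 91.4% in line 20 and 100% in line 21 among ICSI-F1 lines. Lines 29 and 37 stood apart as low, and line 20 lay below lines 44 and 45, so the groups overlapped. The difference of 17.2 points was 31.4 within library set 1 and 3.14 within set 2, and it rested on 2 sites, neither inside CCGG.

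Slc1a5, the main importer of glutamine in dividing cells, was the carrier of this list with the widest spread in the ICSI-F1 group. Its control-F1 lines had levels of 4.61% (line 29), 3.81% (line 37), 6.67% (line 44) and 4.12% (line 45). Its ICSI-F1 lines had 0% (line 11), 0% (line 17), 9.81% (line 20) and 35.2% (line 21). Lines 20 and 21 lay above every control-F1 line, line 21 far above, and lines 11 and 17 lay below every control-F1 line. This split followed the library sets, since lines 11 and 17 belong to set 1 and lines 20 and 21 to set 2. Within set 1 the ICSI-F1 minus control-F1 difference was -4.21 points, and within set 2 it was 17.1 points. The control-F1 lines did not split by set, as line 45 lay below line 29. The cause of the split was not tested. The group means differed by 6.45 points, less than the ICSI-F1 SD of 16.6, and all 5 sites lay in a CpG island and outside CCGG.

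Of 15 carriers known from spermatogenic cells or sperm, 3 were measured. Slc25a31, the ADP/ATP carrier of meiotic and later male germ cells, had group means of 9.55% ± 2.16 (control-F1) and 8.15% ± 2.28 (ICSI-F1) over 38 sites, and 3.74% over the 32 sites outside CCGG, many of which are the capitals of its window above. Slc2a8, a glucose transporter known from testis, had 19.6% ± 1.44 and 18.8% ± 2.62, with 1.74% outside CCGG. Slc6a5, a glycine transporter, had 21.03% ± 3.61 and 20.8% ± 3.98, with 6.62% outside CCGG. None of 4 listed carriers in or near imprinted clusters had a measured site.

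ICSI-F1 and control-F1 promoter levels were close for nearly all carriers. The level was higher in ICSI-F1 lines at 78 promoters and lower at 79, the difference was within 5 points at 144 and beyond 10 points at 5, and the median absolute difference was 0.936 points against a median SD within groups of 2.27 points. Over autosomal promoters 2.89% were beyond 10 points, and over Slc promoters 3.18%. By limma with Benjamini-Hochberg adjustment over all 9224 promoters, 0 of 157 Slc promoters passed an FDR of 0.05, as did 0 (0%) of all promoters. At an unadjusted limma p under 0.05 there were 7 (4.46%) Slc promoters, against 3.14% of all promoters. There were 4 with untransformed percentages (2.55%, against 2.56% of all). There were 11 with library set as a term (7.01%, against 5.37% of all), where again 0 passed the FDR. The 7 were Slc45a4, Slc36a2, Slc5a1 and Slc23a1, higher in ICSI-F1 lines, and Slc9a9, Slc27a4 and Slc7a5, lower in them. The groups did not overlap at 2 Slc promoters, Slc45a4 and Slc4a10, or 1.27%, against 1.4% of autosomal promoters.

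**Figure D3:**
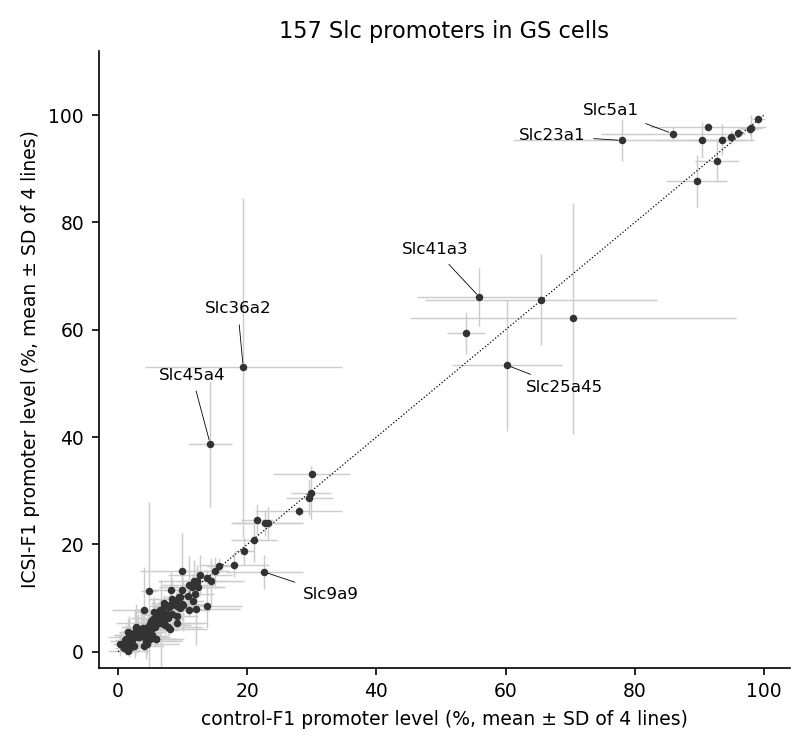
Level of each of the 157 Slc promoters in ICSI-F1 lines (y axis, %) against control-F1 lines (x axis, %), as the mean ± SD of 4 lines, with the dotted line marking equal levels. Most points lie on the line, and Slc45a4 (14.3% and 38.7%) and Slc36a2 (19.4% and 53.0%) lie farthest above it.

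At the level of single sites, the methods of the study name a change of more than 20% with sites left out where a sample is reversed, without saying what a sample is compared with. Here a site was counted when its group means differed by more than 20 points and its ICSI-F1 lines all lay on 1 side of the control-F1 mean. By this rule 9 Slc sites were hypermethylated in ICSI-F1 GS cells, where 0.274% of all sites were, and 2 were hypomethylated, where 0.0506% of all sites were. Under the stricter reading every ICSI-F1 line lies beyond every control-F1 line. It counted 3 Slc sites as hypermethylated, where 0.0673% of all sites were, and 1 as hypomethylated, where 0.00884% of all sites were. These were the sites of Slc17a8, of Slc45a4 at 546 and 674 bp and of Slc9a9 at 438 bp. Over all sites the first reading counted 557 hypermethylated and 103 hypomethylated sites, and the stricter one 137 and 18. The stricter counts are the nearer to those the study reports, over a larger set of sites. The rule is a description and not a test. The first reading, used below, counted 17 hypermethylated sites without line 45 and 14 without line 44, and 1 hypomethylated site without line 17, 21, 44 or 45. The counts over all sites with a line left out are not given here. The 11 sites lay in the promoters of 7 genes, and 6 of them, 5 hypermethylated and 1 hypomethylated, lay inside CCGG. Outside CCGG there were 4 hypermethylated Slc sites of 2540, against 0.161% of all such sites, and 1 hypomethylated site, against 0.0367%. Just inside the rule were Slc9a9 (-20.97 points) and Slc5a1 (20.98 points), and just outside it Slc25a45 (-19.7 points) and Slc23a1 (19.6 points).

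A quasi-binomial test of methylated and unmethylated reads, adjusted over all sites that vary, called 0 of 3002 Slc sites at an FDR of 0.05 and 0 (0%) of 196818 sites in all. At an unadjusted p under 0.05 in that test there were 229 Slc sites (7.63%), 70 higher and 159 lower in ICSI-F1 lines. Of all sites 7.06% had such a p, 5108 of them higher and 8793 lower. With the dispersion of each site alone there were 262 Slc sites (8.73%), against 7.75% of all sites. With library set as a term in the model the test again called 0 Slc sites and 0 of all sites, and 502 Slc sites (16.7%) had an unadjusted p under 0.05, against 15.4% of all sites. The groups did not overlap at 17 Slc sites that were higher and 23 that were lower in ICSI-F1 lines (1.29%), against 1.1% of autosomal sites. Sites of a promoter share reads, so these counts are not counts of separate events.

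**Figure D4:**
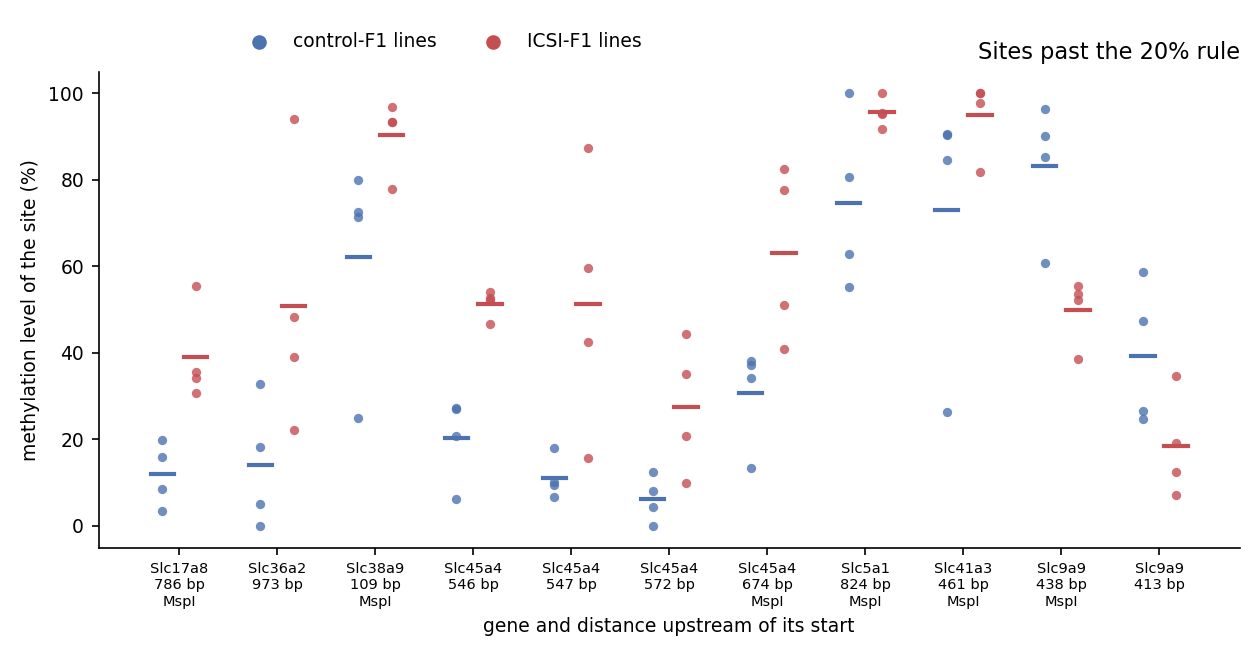
Methylation level (y axis, %) of the 11 Slc sites past the 20% rule in the 4 control-F1 lines (blue) and the 4 ICSI-F1 lines (red), with a bar at each group mean and each site named by its gene and its distance from the start. Sites inside an MspI sequence are marked, and the groups do not overlap at the Slc17a8 site, at the Slc45a4 sites at 546 and 674 bp and at the Slc9a9 site at 438 bp.

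Slc45a4, a member of the family of proton-linked sugar transporters, held 4 of the 9 hypermethylated sites and had the largest promoter difference among members with at least 5 sites. Over its 7 sites the control-F1 lines had levels of 18.1% (line 29), 10.2% (line 37), 15.6% (line 44) and 13.3% (line 45), and the ICSI-F1 lines 40.7% (line 11), 24.8% (line 17), 36.3% (line 20) and 52.9% (line 21). Every ICSI-F1 line was above every control-F1 line. The means were 14.3% ± 3.38 and 38.7% ± 11.6 (SD, n = 4), a difference of 24.4 points with an unadjusted limma p of 0.000956 and an adjusted p of 0.92 over all promoters. Within the library sets the differences were 18.6 and 30.2 points. Without the 1 site inside CCGG the means were 11.5% and 34.6%.

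The sites of Slc45a4 lie 546 to 674 bp upstream of the start, in the shore of a CpG island. At position 73646308 on the plus strand the control-F1 lines had 27.0% (line 29), 6.11% (line 37), 27.3% (line 44) and 20.8% (line 45), and the ICSI-F1 lines 52.3% (line 11), 46.6% (line 17), 54.2% (line 20) and 52.6% (line 21). On the minus strand of the same CpG, at 73646309, the control-F1 lines had 10.1%, 9.44%, 6.78% and 17.9%, and the ICSI-F1 lines 42.4%, 15.8%, 59.8% and 87.5%, in the same order. The groups were apart on the plus strand and overlapped on the minus strand, where line 17 was low and line 21 high. The adjusted p was 0.233 for the plus strand and 0.243 for the minus strand by the quasi-binomial test. The minus strand site was called by that test in an alternative with at least 30 scaled reads in every line (adjusted p = 0.0202). It was also called without line 17 (adjusted p = 0.0138), the lowest ICSI-F1 line at this site. The test called 0 Slc sites in 13 of 15 alternatives. For the alternatives that called this site, the counts over all sites are not given here, so the calls are not shown to be particular to it.

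The next CpG, 572 bp from the start, was hypermethylated by the rule on the plus strand, with a control-F1 mean of 6.23% ± 5.33 and an ICSI-F1 mean of 27.6% ± 15.2. Its minus strand had 11.2% ± 0.955 and 28.9% ± 18.5. Line 21 differed between these strands, with 10.0% on the plus and 51.1% on the minus strand, and at the CpG 597 bp from the start it had 10.5% and 76.1%. Its plus strand sites here had as few as 19 reads in a line. The site at 674 bp is inside CCGG and had 37.2%, 34.1%, 38.2% and 13.3% in control-F1 lines 29, 37, 44 and 45, and 77.8%, 41.0%, 51.2% and 82.6% in ICSI-F1 lines 11, 17, 20 and 21. Those groups did not overlap. All 7 sites had a higher mean in ICSI-F1 lines, by 11.9 to 40.3 points.

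**Figure D5:**
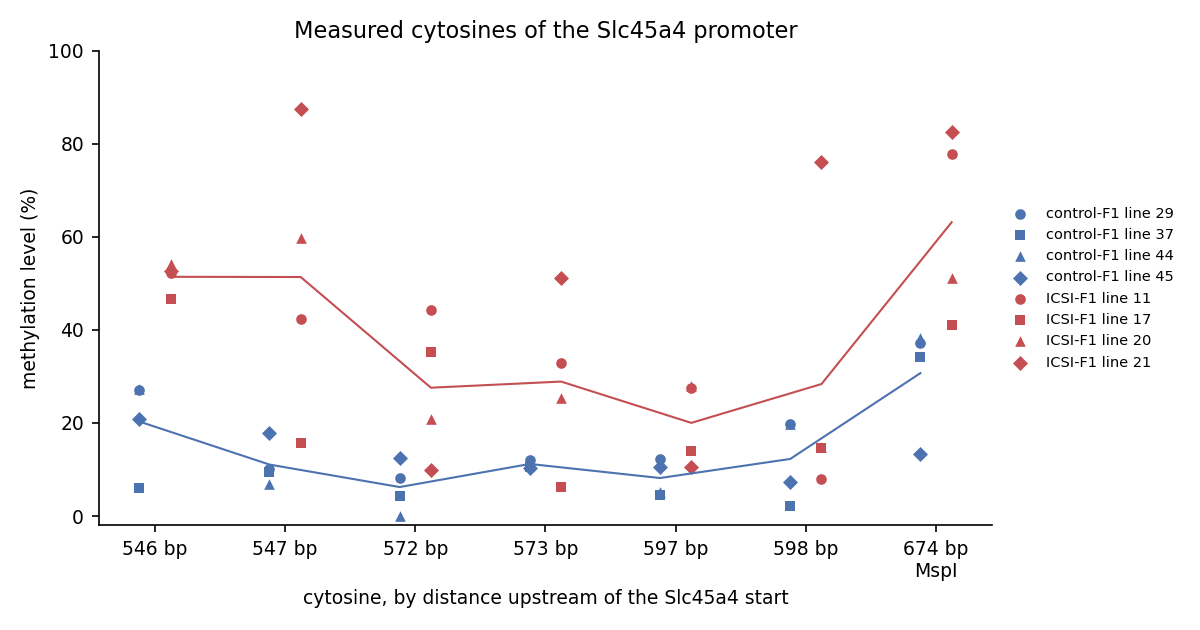
Methylation level (y axis, %) of the 7 measured cytosines of the Slc45a4 promoter by distance upstream of the start (x axis, ordered, not to scale), in control-F1 (blue) and ICSI-F1 (red) lines with a marker for each line and a line through the group means. The ICSI-F1 mean is above the control-F1 mean at each cytosine, and line 21 (diamonds) is high at 547, 573 and 598 bp and low at 572 and 597 bp.

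Slc36a2, which takes up glycine and proline with protons, had the largest difference of the whole family, on only 2 sites 967 and 973 bp from the start. The called site, at 55186050 and outside CCGG, had 0% (line 29), 18.3% (line 37), 5.11% (line 44) and 32.8% (line 45) in control-F1 lines and 22.2% (line 11), 48.2% (line 17), 39.0% (line 20) and 94.1% (line 21) in ICSI-F1 lines. Lines varied widely in both groups, line 11 lay below line 45, and line 21 was far above the rest. The difference was 36.8 points and 22.4 points without line 21. Its neighbour inside CCGG had a difference of 30.5 points but was not counted, since line 11 lay below the control-F1 mean. For the promoter the limma p was 0.0468 unadjusted and 1 adjusted.

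Slc17a8, the vesicular glutamate transporter of a few neuron types, had a hypermethylated site 786 bp from the start, inside CCGG. Its control-F1 lines had 15.9% (line 29), 3.33% (line 37), 8.59% (line 44) and 19.8% (line 45), and its ICSI-F1 lines 35.5% (line 11), 34.2% (line 17), 30.7% (line 20) and 55.6% (line 21). The groups did not overlap, and the differences within library sets were 25.2 and 28.9 points. The site 675 bp from the start, also inside CCGG, had 14.5% ± 5.07 and 25.9% ± 8.01, while the 4 sites outside CCGG had group means of 7.49% (control-F1) and 5.84% (ICSI-F1). The 7 sites nearer to the start differed by -8.44 to 4.36 points, and the 3 of them inside CCGG by -2.66 to 0.0489 points. The higher ICSI-F1 level without overlap of the groups was thus seen at the 2 sites farthest from the start. The site had an adjusted p of 0.35 by the quasi-binomial test.

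The remaining hypermethylated sites rested on low control-F1 lines. Slc38a9, the lysosomal carrier through which arginine signals to cell growth, had a site inside CCGG with 72.5% (line 29), 25.0% (line 37), 71.4% (line 44) and 80% (line 45) in control-F1 and 78.0% (line 11), 96.8% (line 17), 93.3% (line 20) and 93.3% (line 21) in ICSI-F1 lines. Line 37 was the low one, and without it the difference fell from 28.1 to 15.7 points. The 7 sites of this promoter outside CCGG had a mean of 1.60%.

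Slc41a3, of the magnesium transporter family, had sites only inside CCGG. Its called site on the plus strand read 84.6% (line 29), 26.3% (line 37), 90.7% (line 44) and 90.5% (line 45) in control-F1 and 81.8% (line 11), 100% (line 17), 97.8% (line 20) and 100% (line 21) in ICSI-F1 lines. The minus strand of the same CpG read between 4.05% and 16.5% in all 8 lines. Line 37 was again the low one, and without it the difference fell from 21.9 to 6.31 points.

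At Slc5a1, which takes up glucose in gut and kidney, the called site inside CCGG had 62.8% (line 29), 55.2% (line 37), 100% (line 44) and 80.8% (line 45) in control-F1 and 95.3% (line 11), 91.8% (line 17), 95.6% (line 20) and 100% (line 21) in ICSI-F1 lines. The difference of 20.98 points was 34.6 within library set 1 and 7.39 within set 2. The promoter had 70.7% in line 29 and between 86.1% and 98.0% in the other lines. Slc7a15, of the amino acid transporter light chains, likewise had 78.1% in line 29 and between 93.9% and 98.0% elsewhere. Line 29 was thus the lowest line at both promoters. The groups overlapped at each, and the limma p for Slc5a1 was 0.0426 unadjusted and 1 adjusted.

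Slc9a9, a sodium/proton exchanger of endosomes, held both hypomethylated sites. The site 438 bp from the start, inside CCGG, had 60.9% (line 29), 90.2% (line 37), 96.4% (line 44) and 85.4% (line 45) in control-F1 and 55.4% (line 11), 52.2% (line 17), 53.6% (line 20) and 38.7% (line 21) in ICSI-F1 lines. The groups did not overlap there. The site 413 bp from the start, outside CCGG, had 24.6%, 26.7%, 58.6% and 47.5% in control-F1 lines 29, 37, 44 and 45 and 19.2%, 7.04%, 34.8% and 12.5% in ICSI-F1 lines 11, 17, 20 and 21. Those groups overlapped at line 20. The differences were -33.2 and -20.97 points, and the 3 sites within 175 bp of the start had group means between 0% and 4.64%. The promoter as a whole had 22.6% ± 6.00 and 14.9% ± 3.24, with a limma p of 0.0417 unadjusted and 1 adjusted.

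The other members with at least 5 sites and large differences or spreads were Slc17a7, the vesicular glutamate transporter of cortical neurons, and Slc25a48, of the mitochondrial carrier family. Slc17a7 had group means of 12.1% ± 6.85 (control-F1) and 7.99% ± 6.79 (ICSI-F1), with line 44 (22.2%) and line 20 (17.3%) the highest of their groups. Slc25a48 had 13.7% ± 5.46 and 8.53% ± 4.16. The Slc17a7 difference of -4.06 points was smaller than either SD, and the Slc25a48 difference of -5.18 points lay between the SDs, with an unadjusted limma p of 0.128 and an adjusted p of 1. The groups overlapped at both.

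More Slc promoters passed the test between library sets than between groups. The level was higher in set 2 than in set 1 at 142 of 157 promoters (90.4%), against 90.0% of autosomal promoters. With limma, 12 Slc promoters differed between the sets at an FDR of 0.05, against 6.03% of all promoters, and 11 of the 12 were higher in set 2. The count was 0 when any 1 line was left out and 1 without the CCGG sites. The counts over all promoters in these alternatives are not given here, so the fall is not shown to be particular to Slc promoters. Among the 12 were Slc12a8 (by 7.90 points) and Slc29a3, a lysosomal nucleoside transporter (by 5.67 points). Slc25a38, the glycine carrier of heme synthesis in mitochondria, was another (by 5.49 points). The difference between sets was 3.12 points inside CCGG and 2.05 points outside. Each set holds 2 lines of either group, so that group differences within a set, given above, do not carry it.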

How the data were processed

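Per the labels and the study's methods, RRBS libraries were made from MspI-digested DNA of 8 GS cell lines. The authors trimmed reads with Trim Galore 0.5.0 and its RRBS option, aligned them to mm10 with Bismark 0.20.0 and called CpGs with methylKit (1.16.0 in the submitters' processing notes, another version in the methods). They removed sites under 10 reads or above the 99.9th percentile, normalized coverage and united the lines with strands apart. The deposited values, named as a score here, are reads scaled by the authors and rounded, not raw counts. Gaps between coverage values gave factors of 1 to 1.88. The design assumed reads. The test was kept, and undoing the scaling is an alternative.

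Levels were computed per site and promoter. The 20% rule is a reading of the methods, which do not say what a reversed sample is compared with. The looser reading was used, although the stricter one gave counts nearer to those the study reports. Sites were tested by a quasi-binomial model with limma-moderated dispersion, promoters by limma 3.58.1 on arcsine square roots. Both were adjusted over the whole table (R 4.3.3). Both were also run on simulated data that held no difference between library sets. That run, whose outcome is not given here, cannot show how the tests behave where the sets differ. The members and lists were chosen with earlier results of these data known. Named were promoters with a site past the rule, the 12 highest, the 8 largest differences and the 6 largest SDs among promoters with at least 5 sites, and the listed carriers. Other genes named were chosen after their values were seen. Library sets and the role of CCGG were examined after seeing the data. The 5 X-linked genes were left out.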

Additional observations from a re-analysis of the deposited data

Results flagged for a closer look

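A line was marked when its gap to the nearest line of its group exceeded Dixon's limit for 4 values, relative to the range of the group. Of 98 groups of 4 lines examined, 6 held such a line, where chance marks about 1 in 20. The marked values were 94.3% for the Slc16a11 promoter in control-F1 line 29 (others 96.3% to 96.7%) and 8.45% for the Slc38a2 promoter in ICSI-F1 line 21 (others 6.72% to 6.89%). In control-F1 line 37 they were 25% at the Slc38a9 site (others 71.4% to 80%) and 26.3% at the plus strand Slc41a3 site (others 84.6% to 90.7%). At that Slc41a3 site ICSI-F1 line 11 was also marked, with 81.8% (others 97.8% to 100%). In control-F1 line 45 the Slc45a4 site 674 bp from the start was marked, with 13.3% (others 34.1% to 38.2%). The Slc38a9, Slc41a3 and Slc45a4 sites all lie inside CCGG, and what set the marked lines apart was not tested.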

How the results depend on the processing

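The difference in the Slc mean level stayed within its spread under each alternative (-0.628 to 0.324 points with a line left out). The 9 hypermethylated and 2 hypomethylated sites became 36 and 15 at 10 points, 4 and 1 at 30 points, 3 and 1 where groups had to be apart, 4 and 0 with 30 scaled reads and 4 and 1 without CpGs of MspI sites. They were 34 and 4 in library set 1 alone, and 13 and 7 in set 2 alone. Leaving out a line gave 7 to 17 and 1 to 3. The highest counts were 17 without line 45 and 14 without line 44, and 1 hypomethylated site was left without line 17, 21, 44 or 45. The site test called 0 Slc sites in 13 of 15 alternatives, and 1 with 30 scaled reads and 1 without line 17 (range 0 to 1 with a line left out). The promoter test called 0 in all 16, with smallest adjusted p from 0.431 to 1. Between library sets the 12 Slc promoters became 0 with untransformed percentages, 0 with strands merged, 0 without any single line, 1 without CpGs of MspI sites, 5 with 30 scaled reads and 27 among promoters with at least 5 sites, with smallest adjusted p from 0.0289 to 0.122. For most of these alternatives the count over all sites or promoters is not given here. The moves are thus not shown to be particular to Slc promoters. The causes were not tested. Of 438 alternative values for the 37 named promoters, 429 moved by less than the spread. No paired analysis was possible because the groups share no replicate numbers, and with library set as a term 0 sites and 0 promoters were called. With 4 lines a group and about 80 scaled reads a site, differences of a few points at 1 site were not detectable. Much larger ones also went uncalled in the main quasi-binomial test. Differences of 31.1 and 40.3 points at Slc45a4 sites had adjusted p of 0.233 and 0.243. A difference of -33.2 points at Slc9a9 had an adjusted p of 0.702. The 0 calls therefore do not exclude site differences of this size.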

Other observations

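Transport genes outside the Slc symbols gave values beside those of the Slc promoters. The median promoter level was 5.11% for 26 further genes of the carrier superfamily, 5.46% for 27 ABC transporters and 5.95% for 60 voltage-gated and potassium channels, against 6.19% for the Slc promoters and 5.67% for all autosomal promoters. At 80% or more were 1, 0 and 2 of these promoters. The number with groups more than 10 points apart was 0, 1 and 1.

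Inside CCGG the autosomal sites resembled the Slc sites, with a mean level of 26.6% against 3.69% for other sites. Of all autosomal sites past the 20% rule, 285 hypermethylated and 34 hypomethylated sites lay inside CCGG, which holds 17.1% of the sites, and 269 and 54 lay outside. The share past the rule was 0.929% inside and 0.194% outside.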
